A study of Rattus norvegicus with 16 samples.

Results

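Liver and epididymal fat of obese rats fed lipoic acid were compared gene by gene, over the 8 libraries of the lipoic acid groups among the 16 libraries of the study. The libraries were taken by their labels, 4 of liver and 4 of fat. All 8 rats of the study were males of the strain ZDF/GmiCrl-fa/fa, in which the leptin receptor does not function, so that the animals grow obese and hyperglycaemic. All of them ate the grain diet Purina 5008 and were killed at 11 weeks of age. From 9 weeks of age, 4 rats had R-α-lipoic acid (LA) added to this diet for 2 weeks, and the other 4 were pair-fed the diet without it. The liver and the fat therefore came from the same 4 LA rats, but no label links a liver library to the fat library of its rat. The groups are called LA liver and LA fat below, each with 4 biological replicates. Of 22517 gene symbols in the files, 11568 reached 1 FPKM (fragments per kilobase of transcript, scaled to the mapped fragments of the library) in at least 4 of these 8 libraries and were tested. The comparison describes how the tissues differ in rats on this feed. No effect of the feed can be read from it.

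Liver and white fat divide the handling of fuels. Hepatocytes make most plasma proteins, export fat in lipoproteins, make bile acids, urea, glucose and ketone bodies, and break down amino acids and foreign compounds. Adipocytes store triglyceride in a single large droplet, release fatty acids under adrenergic control and secrete hormones such as leptin and adiponectin. Epididymal fat also holds macrophages, fibroblasts, vessels and a covering of mesothelium. Lipoic acid is a sulphur-containing cofactor that is bound to the acyl-transferring subunits of mitochondrial dehydrogenase complexes and to the glycine cleavage system.

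Between the tissues, 1211 genes were higher in liver and 4161 were higher in fat, which are 10.5% and 36% of the genes tested (limma on log2(FPKM + 1), Benjamini-Hochberg adjusted p under 0.05 and a log2 difference over 1). Differences are given as liver minus fat on this log2 scale, so a negative value is higher in fat. The remaining 6196 genes did not pass. Both tissues are mixtures of cells, and in such bulk samples fewer cells of a type cannot be told apart from less RNA per cell. The liver and fat libraries did not overlap for 9244 genes, 79.9% of those tested, and for 5353 of the 5372 genes called. The median difference over all genes was -0.65 on the log2 scale, toward fat. FPKM values are shares of a library, and the 100 most abundant genes took 43.8% to 47.6% of the summed FPKM of a liver library and 39.1% to 40.4% of a fat library. When each library was centred on its median, 1985 genes were higher in liver and 2292 in fat, or 17.2% and 19.8%, and liver's share of the calls went from 22.5% to 46.4%. Centring moves all differences toward liver by the same amount, which is below the limit of 1. All 1211 liver calls were kept and no called gene changed sign, which follows from this shift and is no test of the calls. Fat calls were lost that came under the limit of 1 after this shift or no longer had an adjusted p under 0.05. A gene named below as higher in fat is marked where it was among them. In the plot of mean levels, a dense curve of liver genes runs far from the diagonal.

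**Figure D1:**
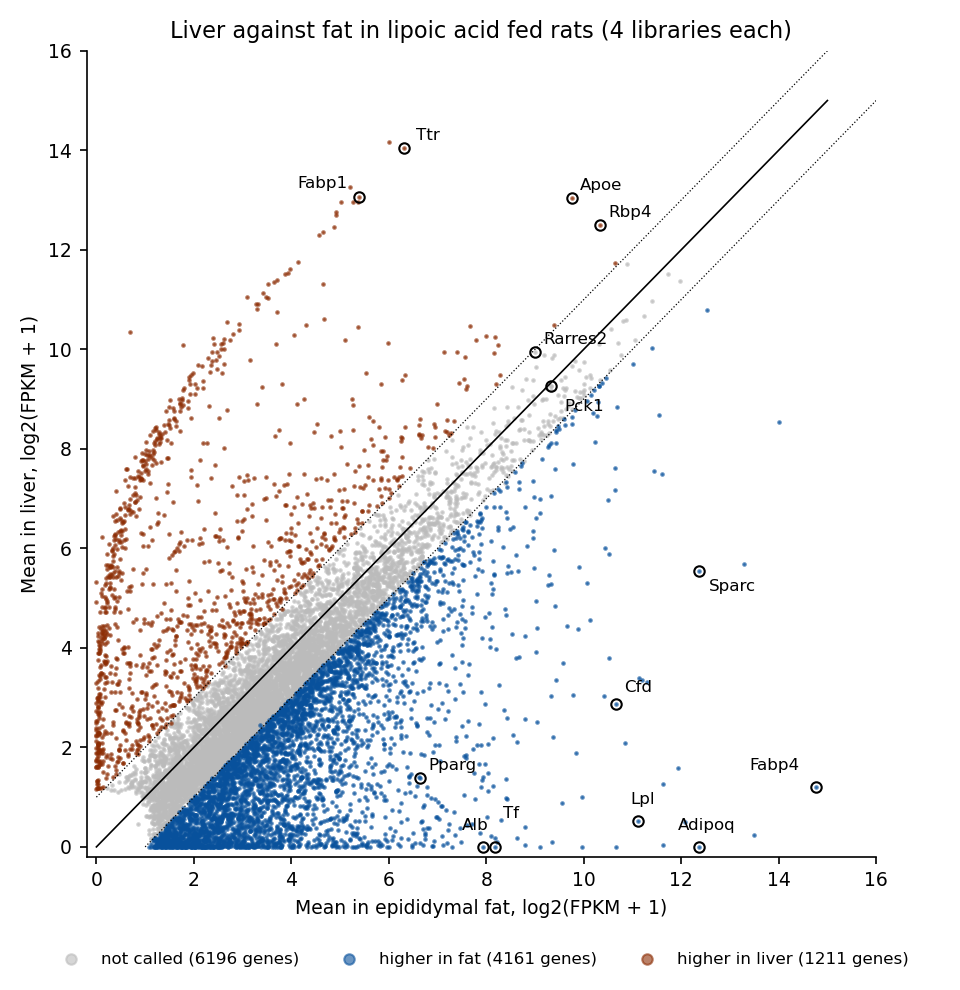
Each point is 1 of the 11568 genes tested, with its mean of 4 LA fat libraries on the x axis and of 4 LA liver libraries on the y axis, both as log2(FPKM + 1). The solid line marks equal levels and the dotted lines a difference of 1. The 4161 genes called higher in fat (blue) outnumber the 1211 called higher in liver (brown), and many liver genes lie on a narrow curve. Alb, Tf and Adipoq sit on the x axis because they are listed at 0 in every liver library.

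Within a tissue the libraries were close, with correlations across genes of 0.991 to 0.994 in liver and 0.971 to 0.992 in fat. Read numbers were not in the files. The steps between low values give 1 fragment a value of 0.808 to 1 times that in LA liver replicate 1, the fat estimates from 48 to 71 of 320 to 350 genes compared, so the libraries appear to differ little in depth. Genes at 1 FPKM or more numbered 9644 to 9738 in liver and 11276 to 11439 in fat. The markers went with the tissue labels. Of 15 hepatocyte markers 13 were higher in liver, and the other 2, Alb and Tf, are listed at 0 in all 4 liver libraries. Albumin is among the most abundant transcripts of any liver, so an exact 0 in these files can be a failed estimate, and no fold is given against such a 0. In all, 133 tested genes are listed at 0 in every liver library and 19 in every fat library. Of 15 adipocyte markers all 15 were higher in fat, 6 of them against a liver listed at 0. Fabp4, the fatty acid carrier of adipocytes, was at 1.09, 1.57, 0.882 and 1.7 FPKM in the liver libraries, against 31560.5, 24683, 29847 and 24654 FPKM in fat. Over the 9 adipocyte markers not listed at 0 in liver, the median level in a liver library was 0.296% to 0.51% of the fat level. Of 11 matched markers of the epididymis 6 are listed at 0 in all fat libraries, 5 of them in all liver libraries too. The 3 that reached the filter (Epcam, Cdh1 and Wfdc2) were higher in liver. Whether the fat libraries held epididymis was not tested.

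Liver transcripts were present in the fat libraries at a low level that differed between these libraries. The 13 hepatocyte markers that can be compared had a median of 0.415%, 0.312%, 0.955% and 0.104% of their mean liver level in fat replicates 1 to 4. All 13 were highest in replicate 3, and 12 of 13 were lowest in replicate 4. Ttr, the thyroxine carrier of plasma, was at 17189, 14035, 18498 and 17629 FPKM in liver and at 79.3, 57.2, 158 and 16.6 FPKM in fat. The same order of replicates 3 and 4 held for 238 of the 286 genes that were higher in liver by over 5 on the log2 scale, whose medians in fat were 0.464%, 0.343%, 1.03% and 0.124% of the liver level. When the share seen in hepatocyte markers was taken out of each fat library, 1219 genes were higher in liver and 4153 in fat, and all 286 stayed called. Their median log2 difference went from 6.73 to 7.39. A share taken out of the fat libraries alone can only raise a difference toward liver. The kept calls and the larger median are therefore no test of these genes. The folds of strongly liver-weighted genes below therefore rest on this low level in fat. Of the 1211 genes higher in liver, 380 were in fat at up to 1% of their liver mean, 260 at over 1% to 10% and 571 at over 10%.

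**Figure D2:**
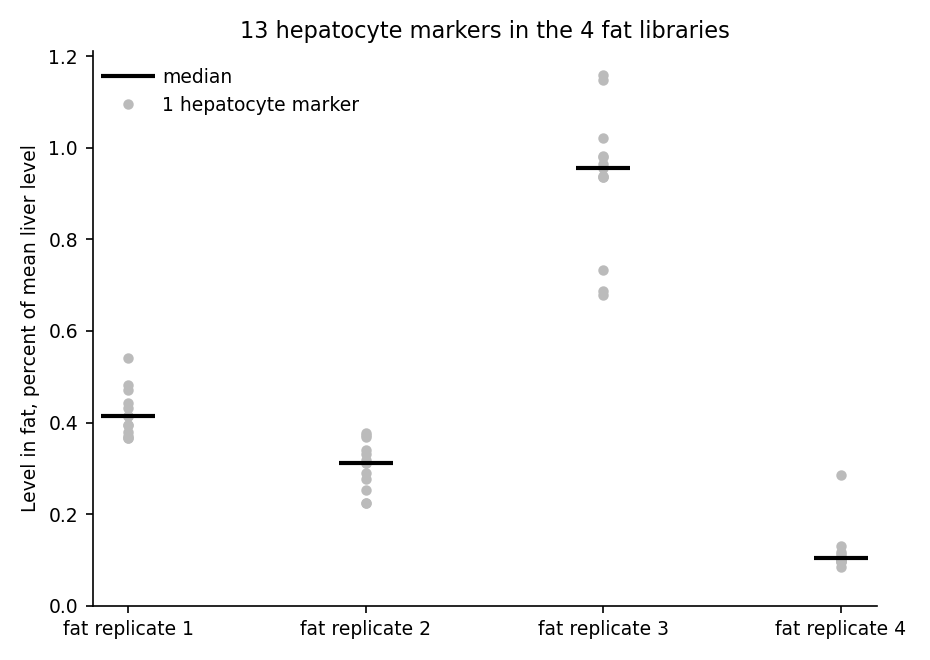
The y axis gives the level of a gene in a fat library as a percent of its mean over the 4 LA liver libraries, and the x axis the 4 LA fat replicates. Grey points are the 13 hepatocyte markers and black bars their medians, which are 0.955% in replicate 3 and 0.104% in replicate 4.

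Proteins that the liver secretes into plasma had the highest median of the 33 gene lists. Of 26 plasma protein genes tested, 24 were higher in liver and 2 in fat, and the latter are Alb and Tf with their 0 in liver. Their median difference was 7.71, or 7.73 without those 2, against -0.65 over all genes. Gc, the vitamin D binding protein, was at 6893, 6593, 6827 and 7428 FPKM in liver and 25.1, 21.3, 63 and 7.11 FPKM in fat, a difference of 8.21 (SE 0.48, adjusted p = 5.6e-08). Serpina1, the inhibitor of neutrophil elastase, was at 6608 ± 601 FPKM in liver and 29.4 ± 24.2 FPKM in fat (mean ± SD, n = 4). Hp and Hpx, which bind free haemoglobin and heme, differed by 7.93 and 7.98. Crp, the acute phase pentraxin, had 7924 ± 1175 FPKM in liver against 40.2 ± 30.8 FPKM in fat. For 22 of the 24 genes the fat level was at most 1% of the liver level. The exceptions were the copper protein Cp (510 ± 84.8 against 18.1 ± 2.25 FPKM) and the retinol carrier Rbp4 (5754 ± 489 against 1284 ± 331 FPKM), whose fat libraries held it at 1639.8, 1124, 1467 and 905 FPKM. Rbp4 was highest in fat replicate 1, where the hepatocyte markers were not. Hamp, the iron hormone hepcidin, had the largest difference toward liver once models with only a LOC or clone name were set aside, at 8.61 (SE 0.46), with 1129, 1251, 850 and 1115 FPKM in liver and 2.67, 1.4, 5.59 and 0 in fat.

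Coagulation and complement genes lay on both sides, with a share on the fat side below or near that of all genes. Of 24 coagulation genes, 17 were higher in liver and 7 in fat (median 6.46). These are 70.8% and 29.2%, beside 10.5% and 36% of all genes. On the liver side were the plasma factors F11 (42.9 ± 5.07 against 0.228 ± 0.13 FPKM) and F13b and the kallikrein Klkb1. On the fat side, F3, tissue factor, was at 0.59, 0.882, 0.913 and 0.72 FPKM in liver and 137, 135, 127 and 138 FPKM in fat, and F13a1, the factor XIII subunit of macrophages, was at 0.112 ± 0.0574 against 83 ± 8.23 FPKM. Plat, the tissue plasminogen activator, and Thbd, thrombomodulin of endothelium, were also higher in fat, at -4.04 and -3.78. Of 27 complement genes, 14 were higher in liver, 10 in fat and 3 did not pass (median 1.90). The shares were 51.9% and 37%, the second near the 36% of all genes. C5, Masp2, C4bpa and Cfi were higher in liver, by 5.92, 5.36, 6.87 and 7.04. Cfd, which is adipsin, the protease of the alternative pathway secreted by adipocytes, was at 4.79, 6.17, 5.95 and 8.26 FPKM in liver and 1865, 1560.2, 1690.5 and 1371 FPKM in fat. The inhibitors on cell membranes Cd55 and Cd59 were higher in fat as well, as was C6, a component of the membrane attack complex (45.8 ± 5.18 against 240 ± 4.59 FPKM). C3 is listed at 0 in all 8 libraries.

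Lipoprotein and bile acid genes lay on the liver side. Of 22 lipoprotein genes tested, 18 were higher in liver, 3 in fat and 1 did not pass (median 6.38). Apob, the structural protein of very low density lipoprotein, was at 218 ± 24 FPKM in liver and 0.907 ± 0.748 FPKM in fat. Mttp, the triglyceride transfer protein that loads it, was at 49.1, 61.4, 54.6 and 62.4 FPKM in liver and 0.156, 0.2, 0.646 and 0.0341 FPKM in fat. Apoc1 and Apoa2 differed by 8.11 and 8.13. Apoe was higher in liver but abundant in fat as well, at 8424 ± 1228 against 864 ± 180 FPKM. The 3 genes on the fat side were the phospholipid transfer protein Pltp (-3.98), the lipase inhibitor Angptl4 (-1.49) and the receptor Lrp1 (-1.47), and the calls of Angptl4 and Lrp1 were lost with centring. Apoa1 is not among the symbols matched. Of 17 bile acid genes tested, 16 were higher in liver, 0 in fat and 1 did not pass (median 4.93). Slc10a1, the uptake carrier for bile salts, was at 250 ± 27.8 FPKM in liver and 1.02 ± 0.6 FPKM in fat. Nr1h4, the bile acid receptor FXR, differed by 4.52 and its target Nr0b2, the repressor SHP, by 4.93. Cyp27a1, which opens the acidic pathway of bile acid synthesis and is also found in macrophages, kept 8.34, 7.72, 7.06 and 7.27 FPKM in fat against 175, 134, 162 and 184 FPKM in liver.

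Nitrogen metabolism followed the same division. All but 1 of the 25 tested genes of amino acid breakdown were higher in liver, with a median of 6.22, and the other, Sdsl, did not pass. Tdo2, which opens the ring of tryptophan, was at 991 ± 83.9 against 4.19 ± 3.57 FPKM. Kynu, Kmo and Aass, enzymes further down the tryptophan and lysine pathways, differed by 5.63, 5.46 and 5.86. Bhmt, which remethylates homocysteine, was at 2719.8, 1823, 2542 and 3058 FPKM in liver and 9.18, 7.49, 22.9 and 2.5 FPKM in fat. Sds, serine dehydratase, varied most among the liver libraries of this list, at 238, 143, 54.1 and 197 FPKM, and stayed above fat in each. Of 11 urea cycle genes 10 were higher in liver and 1 in fat (median 4.81). Ass1, argininosuccinate synthase, differed by 7.98 and Arg1, the arginase of the cycle, by 6.27. The mitochondrial carriers Slc25a13 and Slc25a15 differed by 4.81 and 4.03. Gls2 was at 191 ± 42.4 against 2.83 ± 0.461 FPKM.

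Several gluconeogenesis genes were higher in liver. Of 13 genes tested, 6 were higher in liver, 2 in fat and 5 did not pass (median 0.16), and with centring 6 were higher in liver and 0 in fat (median 0.83). G6pc, the phosphatase that releases glucose from the cell, was at 274, 202, 107 and 277 FPKM in liver and 1.16, 0.298, 1.75 and 0.304 FPKM in fat. Fbp1, fructose bisphosphatase, differed by 7.29, and Creb3l3, a fasting-induced transcription factor, by 6.71. Pck1, which forms phosphoenolpyruvate and serves glycerol synthesis in fat cells, was at 913, 419, 558 and 564 FPKM in liver and 584, 733, 618 and 650 FPKM in fat. The groups overlapped for Pck1 (difference -0.13, SE 0.21, adjusted p = 0.58), and with centring the difference was 0.54. The mitochondrial form Pck2 was at 6.38 ± 1.9 against 17.5 ± 2.65 FPKM, and Mdh1, the cytosolic malate dehydrogenase, differed by -1.05 (-0.97 without fat replicate 1 and -0.98 without liver replicate 2, below the limit). Both calls toward fat were lost with centring.

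Enzymes for foreign compounds and steroids were mostly higher in liver. Of 29 cytochrome P450 genes tested, 23 were higher in liver, 3 in fat and 3 did not pass (median 6.08). Cyp2e1, which oxidizes ethanol and ketones, was at 2145, 1761, 1836 and 2766 FPKM in liver and 8.39, 4.79, 14.6 and 2.24 FPKM in fat. Cyp3a18 and Cyp4a3 differed by 7.02 and 6.65. Members of these families share sequence, and the authors' assignment of shared reads can move values between them. Cyp1b1, a P450 of mesenchymal cells, was at 0.0379, 0, 0.0306 and 0.0327 FPKM in liver and 10.7, 17.1, 14.4 and 15.9 FPKM in fat. Cyp2b1 and Cyp2u1 were called toward fat at -1.16 and -1.16, both lost with centring. Fat replicate 4 decides Cyp2b1, which was at 2.8, 3.04, 3.06 and 10.4 FPKM in fat and differed by -0.78 without that library. Of 31 conjugating enzymes, 21 were higher in liver, 3 in fat and 7 did not pass (median 2.27). Sult1e1, estrogen sulfotransferase, was at 2229.8 ± 235 against 9.67 ± 7.25 FPKM. Gstm5 and Gstp1, glutathione transferases, were higher in fat, at -4.35 and -2.31.

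Fatty acid oxidation was higher in liver with smaller differences, and fat kept most of its members at a sizeable level. Of 34 genes, 21 were higher in liver, 3 in fat and 10 did not pass (median 1.23). In 15 of the 21 the fat level was over 10% of the liver level. Ehhadh and Decr2, enzymes of peroxisomes, differed by 4.49 and 3.36, and Acot12, a cytosolic thioesterase, by 5.66. Cpt1a, the liver form of the carnitine transferase that admits fatty acids to mitochondria, was at 61.7, 55.9, 53.5 and 87.8 FPKM in liver and 11.5, 10.9, 10.1 and 11.7 FPKM in fat. Cpt1b, the muscle form, was at 0.321, 0.288, 0.189 and 0.504 FPKM in liver and 16, 18.7, 15.8 and 17.1 FPKM in fat. Crat and Pex11a were also higher in fat, at -2.59 and -1.71. Of 9 ketone body genes 4 were higher in liver, 3 in fat and 2 did not pass (median 0.60). The shares were 44.4% and 33.3%, the second near the 36% of all genes. Bdh1, the hydroxybutyrate dehydrogenase, was higher in liver by 4.18. Oxct1, the transferase needed to use ketones, was at 0.461, 0.579, 0.409 and 0.397 FPKM in liver and 330, 300, 352 and 279 FPKM in fat. Aacs, which directs acetoacetate to lipid synthesis, was higher in fat at -2.34, as was the carrier Slc16a1 at -1.78.

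For the synthesis of fatty acids and of cholesterol, genes were called in both directions. Of lipogenesis genes 43.8% were higher in liver and 12.5% in fat, beside 10.5% and 36% of all genes. For cholesterol synthesis the shares were 34.8% and 4.35%. Over all genes, 6196 of 11568 did not pass. Of 16 lipogenesis genes 7 were higher in liver, 2 in fat and 7 did not pass (median 0.32), and with centring 8 were higher in liver and 1 in fat. Fads2, the delta-6 desaturase, was at 539, 559, 684 and 621 FPKM in liver and 8.89, 10.1, 12.2 and 6.69 FPKM in fat, and Elovl2, which elongates polyunsaturated fatty acids, differed by 3.97. Elovl6 and Mid1ip1 were higher in liver by 1.60 and 1.69. Me1, malic enzyme, was higher in fat at 29.4 ± 12.2 against 107 ± 40.6 FPKM. Pnpla3, a droplet protein induced by carbohydrate, was at 10.1, 8.66, 37.5 and 6.04 FPKM in liver and 53.9, 48.5, 59.5 and 22.3 FPKM in fat, where liver replicate 3 lay above fat replicate 4. With centring its difference was -1.09 and its call was lost because its adjusted p no longer passed. Scd1, the stearoyl-CoA desaturase, did not pass, at 1684, 1017, 1404 and 379 FPKM in liver and 3477, 1123, 1661 and 407 FPKM in fat, and was lowest in replicate 4 of each. Of 23 cholesterol synthesis genes 8 were higher in liver, 1 in fat and 14 did not pass (median 0.29). Nsdhl, which acts late in the pathway, differed by 2.90. Insig1, which retains the sterol sensor in the endoplasmic reticulum, was at 49.4, 70.2, 196 and 138 FPKM in liver and 454, 418, 545 and 352 FPKM in fat, while its paralog Insig2 was higher in liver by 2.64.

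Genes of triglyceride storage and release were mostly higher in fat. The shares toward fat were 68.4% for lipid droplets and lipolysis and 64.7% for triglyceride synthesis, beside 36% of all genes. Toward liver they were 10.5% and 23.5%, beside 10.5% of all genes. Of 19 lipid droplet and lipolysis genes, 13 were higher in fat, 2 in liver and 4 did not pass (median -3.34, or -2.98 without the gene at 0 in liver). Plin1, the perilipin that guards the adipocyte droplet and is listed under its older symbol Plin, was at 512, 635, 531 and 530 FPKM in fat and is listed at 0 in all 4 liver libraries. Pnpla2, the first lipase of lipolysis, was at 21.1, 22.5, 18.6 and 20.7 FPKM in liver and 776, 873, 712 and 870 FPKM in fat. Lipe, hormone-sensitive lipase, was at 1.18 ± 0.167 against 262 ± 25.7 FPKM. Lpl, lipoprotein lipase, was at 0.136, 0.584, 0.328 and 0.725 FPKM in liver and 2339, 2171, 2562 and 1840.2 FPKM in fat, a difference of -10.60 (SE 0.15, adjusted p = 3.4e-12). The genes on the liver side were Cideb, which enlarges lipoprotein particles, and the glycerol channel Aqp9. Of 17 triglyceride synthesis genes 11 were higher in fat, 4 in liver and 2 did not pass (median -1.52), and centring left 8 on the fat side. Dgat1, which adds the last fatty acid, was at 19.9 ± 2.41 against 118 ± 8.55 FPKM, and Agpat9 and Agpat1 differed by -4.84 and -3.82. On the liver side were Gk, glycerol kinase (51.6 ± 5.89 against 3.64 ± 0.352 FPKM), Lpin3, Acsl4 and Acsl5.

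Of 18 genes for uptake and binding of fatty acids, 10 were higher in fat and 8 in liver (median -1.77). These are 55.6% and 44.4%, beside 36% and 10.5% of all genes, so both shares were above those of all genes. Fabp4 had the largest difference of all toward fat, -13.56 (SE 0.14), in the libraries given above. Cav1 and Cav2, the coat proteins of caveolae, and Ptrf, the cavin that shapes them, differed by -8.97, -6.92 and -7.46. Cd36, the fatty acid translocase, was at 11.8 ± 1.1 against 130 ± 17.6 FPKM. Slc27a2 and Slc27a5, acyl-CoA synthetases of the liver, differed by 7.15 and 6.50 in the other direction. Sncg, a synuclein, was at 0.155, 0.278, 0.125 and 0.134 FPKM in liver and 12557, 11022, 12054 and 10696 FPKM in fat, and S100b, a calcium-binding protein, at 0.0515, 0, 0.0416 and 0 FPKM in liver and 3218, 2999.7, 3452 and 2944 FPKM in fat. Nnat and the amine oxidase Aoc3 differed by -11.59 and -8.66. These 4 genes were each separated by far more than the spread of either tissue.

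Of the adipokine list 15 of 19 matched genes were tested, of which 11 were higher in fat, 1 in liver and 3 did not pass (median -1.93, or -1.69 without the genes at 0 in liver). The shares of 73.3% toward fat and 6.67% toward liver stand beside 36% and 10.5% of all genes. The 11 genes higher in fat include Lpin1 (-1.52), which is an enzyme of triglyceride synthesis inside the cell and not a secreted signal. Adipoq, adiponectin, is listed at 0 in the 4 liver libraries and was at 4908, 5315, 5514 and 5231 FPKM in fat. Lep, leptin, was at 1163, 1767, 1489.7 and 2076 FPKM in fat and Retn, resistin, at 1224, 750, 1222 and 789 FPKM, both again listed at 0 in liver. Serpina12, vaspin, was at 44.6, 19, 30.3 and 15.5 FPKM in fat and 0.18, 0.162, 0.0485 and 0.104 FPKM in liver. Fst, the activin antagonist follistatin, Nrg4, Apln and the chemokine Ccl2 differed by -3.27, -1.93, -1.86 and -4.47. Ccl2 was highest in fat replicate 1, at 91.9, 28.2, 39.9 and 42.9 FPKM over the 4 replicates. Angptl4 and Lpin1 lost their calls toward fat with centring. Fgf21, the fasting hormone of the liver, was higher in liver by 1.89, with 8.14, 30.2, 15.8 and 22.2 FPKM there and 4.66, 3.83, 5.4 and 2.35 FPKM in fat. Rarres2, which is chemerin, Agt, angiotensinogen, and Nampt did not pass, at 986 ± 82 against 513 ± 58.7, 239 ± 29.1 against 242 ± 48.8 and 41.7 ± 4.29 against 59.1 ± 2.81 FPKM. Rarres2 was called toward liver with centring, at 1.61. Itln1 is listed at 0 in all 8 libraries, and Il6, Tnf and Sfrp5 stayed below the filter.

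Adrenergic signalling differed in its receptors and in the cyclic AMP pathway behind them. Of 16 tested genes 13 were higher in fat, 2 in liver and 1, Pde4d, did not pass (median -2.12, or -1.71 without the 3 genes at 0 in liver). The shares of 81.2% toward fat and 12.5% toward liver stand beside 36% and 10.5% of all genes, the second near it. Adrb3, the β3 receptor of adipocytes, was at 8.98, 15.7, 15 and 18.7 FPKM in fat and is listed at 0 in liver, as are Adra2c (17.6, 16.7, 15.5 and 10.6 FPKM in fat) and Adra1d. Adrb1 was at 0.0428 ± 0.0551 against 2.11 ± 0.519 FPKM, with a call that centring removed. Adra1b, the α1 receptor that raises calcium in hepatocytes, was at 13, 11.6, 15.4 and 15.8 FPKM in liver and 0.482, 0.631, 0.437 and 0.252 FPKM in fat. Gcgr, the glucagon receptor, was at 65, 55.7, 61 and 62.3 FPKM in liver and 2.79, 1.71, 1.98 and 1.74 FPKM in fat. The adenylyl cyclases Adcy3, Adcy4, Adcy5 and Adcy6 were all higher in fat, at -2.47, -1.69, -3.35 and -2.52. Prkar2b, the regulatory subunit of protein kinase A in fat cells, was at 0.0259, 0.0696, 0.104 and 0.0669 FPKM in liver and 292, 273, 326 and 290 FPKM in fat. The catalytic subunit Prkaca differed by -1.28, with a call that centring removed. Pde3b, through which insulin lowers cyclic AMP, and Adora1, the adenosine receptor that restrains lipolysis, were higher in fat at -1.71 and -2.97. Adra1a, Adra2b and Pde3a stayed below the filter, and Gnas is listed at 0 in liver and at 0.262, 0.0746, 0.17 and 0.152 FPKM in fat.

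Of 28 insulin and IGF genes 14 were higher in fat, 5 in liver and 9 did not pass (median -1.06), and with centring 9 were higher in fat and 6 in liver. The shares of 50% and 17.9% stand beside 36% and 10.5% of all genes, and the median beside -0.65. On the liver side were Igf1, the growth factor that the liver releases, at 291, 198, 214 and 174 FPKM in liver against 56, 67.5, 58.8 and 58.5 FPKM in fat, its serum partner Igfals (5.70), Igfbp1 (4.61) and Igfbp4 (1.43). The other gene on that side was Trib3, a pseudokinase that binds Akt (2.01). The binding proteins Igfbp2, Igfbp5, Igfbp6 and Igfbp7 were higher in fat, at -6.25, -5.68, -8.40 and -4.08. Igfbp3, the main IGF carrier of serum, was also called toward fat at -1.31, which centring removed. Grb10, an adaptor that restrains the insulin receptor, was at 0.305 ± 0.0549 against 14.4 ± 1.63 FPKM, and the kinase Akt2 at 26.4 ± 2.12 against 102 ± 8.36 FPKM. Irs3, an insulin receptor substrate of rodent fat, was uneven in liver, at 1.96, 1.8, 9.07 and 5.67 FPKM, against 12.3, 15.1, 14.4 and 15.9 FPKM in fat, and its call was lost with centring.

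Many enzyme families supplied a different member in each tissue. Of 30 pairs chosen from textbook tissue forms, 28 had both genes in the files, and in 17 the liver member was called higher in liver and the fat member higher in fat. Over the single members, 21 liver members were called toward liver and 24 fat members toward fat, of which 20 remained so with centring. Read against 10.5% and 36% of all genes these counts are high, but the pairs were picked for known tissue forms. Slc2a2, the glucose transporter GLUT2, was at 227, 188, 190 and 212 FPKM in liver and 0.724, 0.899, 2.01 and 0.144 FPKM in fat, while Slc2a4, the insulin-regulated GLUT4, was at 0.0333, 0.12, 0.0538 and 0.0862 FPKM in liver and 33, 29.2, 26.3 and 27.5 FPKM in fat. Hk2, hexokinase 2, was at 0.0961 ± 0.0569 against 9.41 ± 1.38 FPKM. The pyruvate kinases gave 6.2 for Pklr and -5.31 for Pkm, listed as Pkm2. Gys2 and Gys1, the glycogen synthases, differed by 1.91 and -2.63. Ldhb, the lactate dehydrogenase subunit of oxidative tissues, and Pfkfb3, which makes an activator of glycolysis, were higher in fat at -7.06 and -6.14, and Khk, which phosphorylates fructose, was higher in liver by 5.72. Over the 35 glycolysis and glycogen genes tested 10 were higher in liver, 14 in fat and 11 did not pass (median -0.68). These are 28.6% and 40% of the list against 10.5% and 36% of all genes, and with centring 13 were higher in each tissue (median -0.01).

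**Figure D3:**
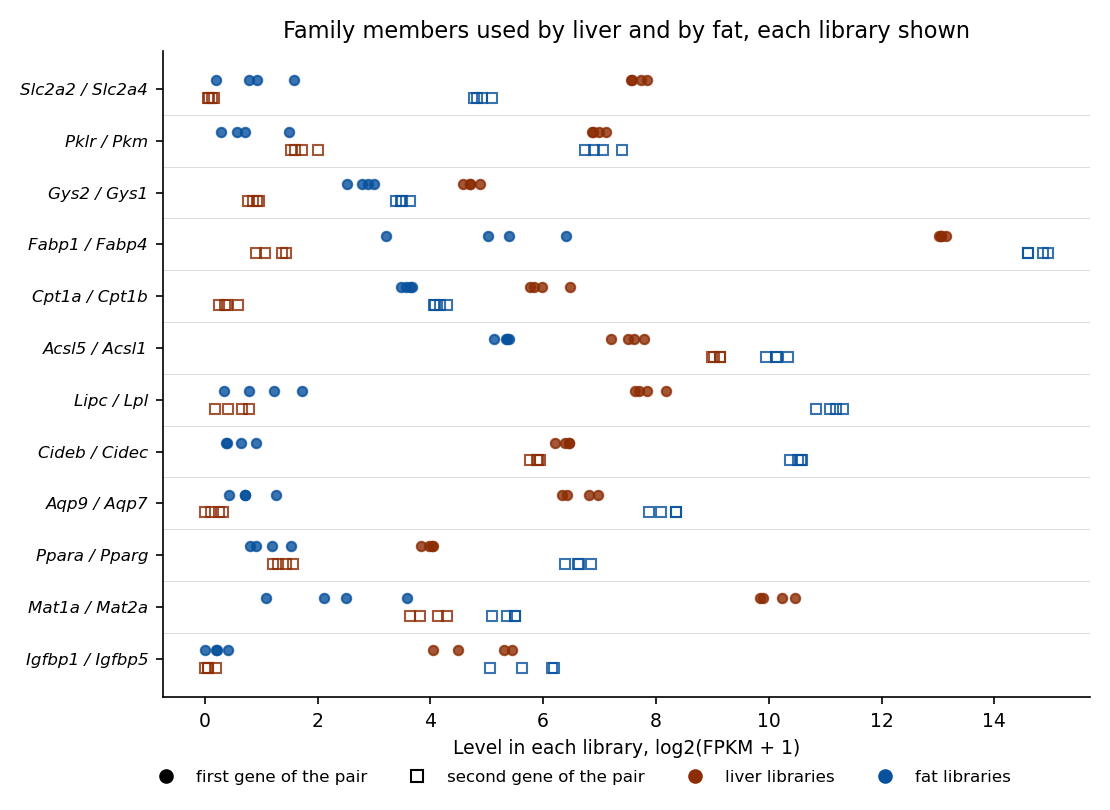
Each row is a pair of genes of 1 family, and the x axis gives the level in each of the 4 LA liver (brown) and 4 LA fat (blue) libraries as log2(FPKM + 1). Filled circles are the first gene and open squares the second. For the first gene the brown circles lie right of the blue ones in every row shown, and for the second gene the blue squares lie right of the brown ones. The pair of Adra1b and Adrb3, also called in opposite directions, is left out because Adrb3 is listed at 0 in liver, and of the rest the pairs named in the text are drawn.

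The pairs in lipid metabolism gave the same picture. Fabp1 was at 8589 ± 328 against 41.2 ± 31.4 FPKM, while Fabp4 had its high level in fat. Lipc, hepatic lipase, differed by 6.82 and Lpl by -10.60. Cideb and Cidec, which act on lipoproteins and on the adipocyte droplet, differed by 5.80 and -4.63. The glycerol channels Aqp9 and Aqp7 differed by 5.86 and -8.00. Ppara, the fatty acid receptor that drives oxidation, was at 14.8, 15.4, 15.5 and 13.3 FPKM in liver and 0.737, 1.29, 0.875 and 1.89 FPKM in fat. Pparg, the receptor of adipogenesis, was at 1.7, 1.94, 1.46 and 1.32 FPKM in liver and 114, 97, 98.7 and 82.6 FPKM in fat, and neither overlapped between the tissues. Mat1a and Mat2a, which make S-adenosylmethionine, differed by 7.79 and -1.39, and Acsl5 and Acsl1 by 2.23 and -1.07, where the calls of Mat2a and Acsl1 were lost with centring and that of Acsl1 also without fat replicate 3. Not every pair divided. Lpin2, Pfkl and Plin2 did not pass, at 0.25, -0.27 and -0.80 (Plin2 passed at -1.05 without liver replicate 2), while Thrb was at 7.67 ± 1.81 against 5.48 ± 3.04 FPKM beside a Thra that was higher in fat at -3.32.

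Genes of the complexes that carry lipoic acid were called in both directions. Of 23 tested genes of these complexes and of lipoate metabolism, 4 were higher in liver, 8 in fat and 11 did not pass (median 0.07). These shares of 17.4% and 34.8% stand beside 10.5% and 36% of all genes, the second close to it. With centring 10 were higher in liver and 2 in fat, so the direction of this list depends on the scaling. The transferases hold the lipoyl group. Dlat, of pyruvate dehydrogenase, was at 14.3, 14.2, 19.7 and 14.6 FPKM in liver and 44.6, 36.3, 40.1 and 35 FPKM in fat. Dlst, of the oxoglutarate complex, was at 80.6, 84.4, 83.8 and 95.1 FPKM in liver and 64.5, 57.9, 61.9 and 53.1 FPKM in fat. Dbt, of the branched-chain complex, was at 39.2, 36.7, 38.5 and 38.4 FPKM in liver and 26.9, 27.3, 29.8 and 27.9 FPKM in fat. Dlat was called toward fat, which centring removed, and Dlst and Dbt did not pass but were called toward liver with centring. Of the partner subunits, Pdha1 and Ogdh were called toward fat at -1.58 and -1.65 and the shared dehydrogenase Dld at -1.05 (-0.99, below the limit, without fat replicate 3 or liver replicate 1), all lost with centring, while Pdhb, Pdhx and Bckdha did not pass. Bckdhb was called toward liver at 1.06. The glycine cleavage system was higher in liver, with Gldc at 32.9, 55.7, 37.3 and 62.4 FPKM in liver and 0.352, 0.681, 0.775 and 0.962 FPKM in fat and Gcsh, its lipoyl protein, at 173 ± 13.3 against 72.7 ± 9.97 FPKM. Amt of that system is listed at 0 in all 8 libraries.

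Lias, the synthase that inserts the sulphur atoms, was at 22.5, 22.3, 22.6 and 24.2 FPKM in liver and 19.8, 14.2, 18.2 and 14.5 FPKM in fat and did not pass. Lipt2, the octanoyl transferase, was called toward fat at -1.22, which centring removed, and Lipt1 stayed below the filter at 0.706 ± 0.161 against 1.07 ± 0.167 FPKM. Oxsm and Mcat, of mitochondrial fatty acid synthesis, did not pass, at 0.07 and 0.34. Among the kinases that switch off pyruvate dehydrogenase, Pdk2 was higher in liver at 95.4, 80.8, 89.3 and 94 FPKM against 26.9, 27.7, 26.1 and 28.4 FPKM in fat, Pdk3 was higher in fat at -2.20, and Pdk1 and Pdk4 did not pass. The phosphatase Pdp1, listed as Ppm2c, was at 0.943, 0.784, 0.762 and 0.994 FPKM in liver and 12.8, 10.9, 14.1 and 13.6 FPKM in fat, while Pdp2 did not pass. In the breakdown of branched-chain amino acids the first step was higher in fat. Bcat2, the mitochondrial transaminase, was at 1.21, 1.08, 0.835 and 1.83 FPKM in liver and 45.5, 46, 46.7 and 44.1 FPKM in fat, and Bcat1 differed by -3.76. Of the 22 genes of that pathway tested 8 were higher in liver, 4 in fat and 10 did not pass (median 0.40). These are 36.4% toward liver and 18.2% toward fat, beside 10.5% and 36% of all genes. With centring 12 were higher in liver and 2 in fat (median 1.07). Aldh6a1, a dehydrogenase of valine breakdown, was higher in liver by 2.41. Bckdk, the kinase of the complex, was called toward fat at -1.42, which centring removed.

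**Figure D4:**
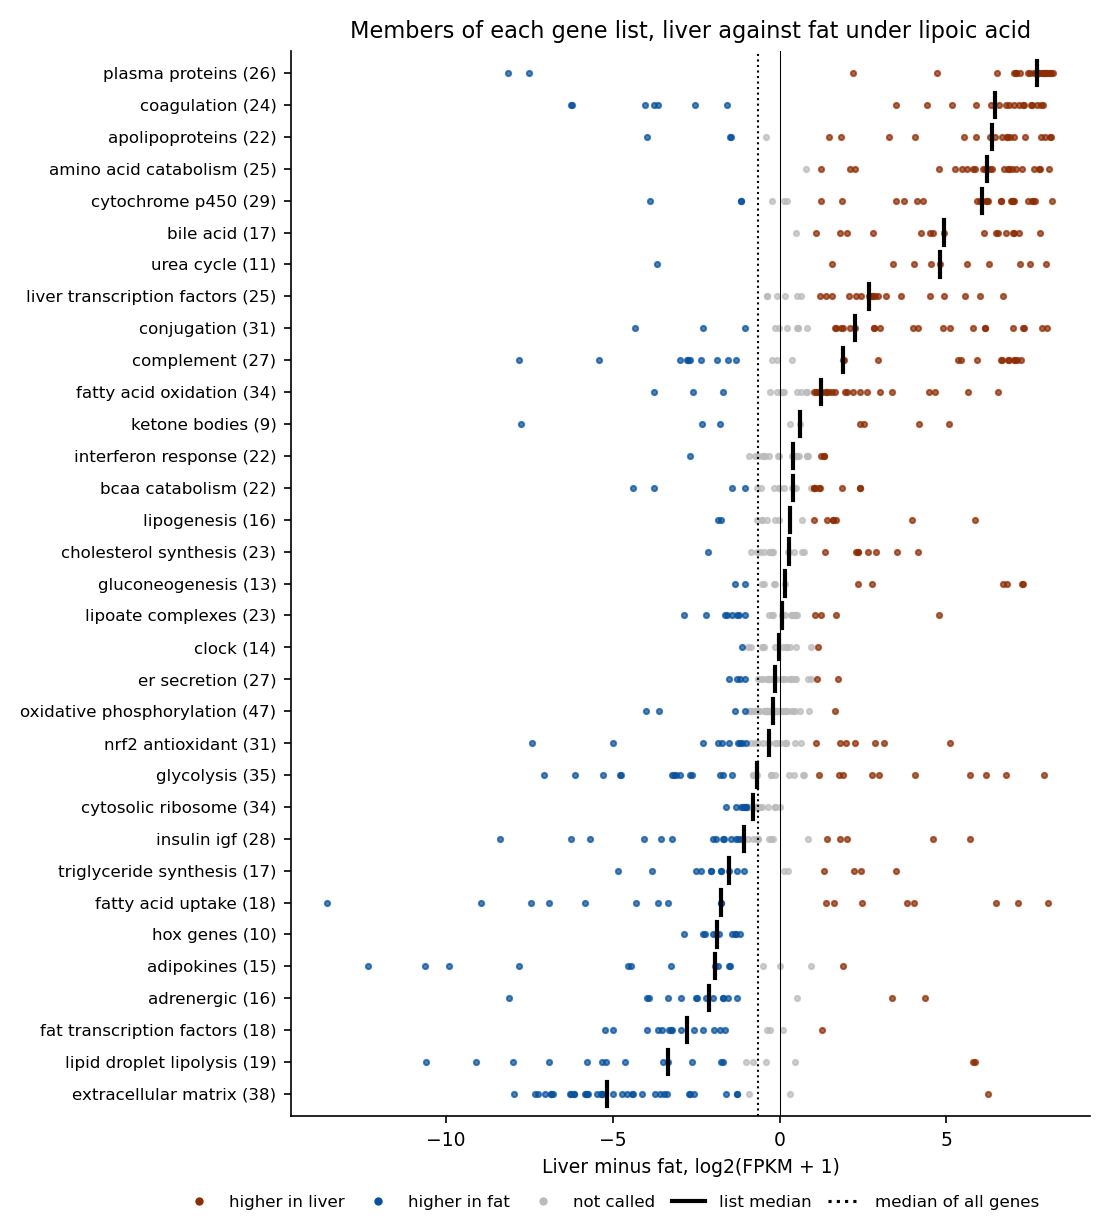
Each row is a gene list with the number of genes tested, and the x axis gives the difference of liver minus fat on the log2(FPKM + 1) scale. Points are genes, brown where called higher in liver, blue where called higher in fat and grey where not called. Black bars are list medians, from 7.71 for plasma proteins to -5.18 for extracellular matrix, and the dotted line is the median of all genes at -0.65.

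Few genes of the machinery that all cells use passed, and few interferon-induced genes. Over all genes, 6196 of 11568 did not pass, and 10.5% were called toward liver and 36% toward fat. The shares were 2.13% and 8.51% for oxidative phosphorylation and 0% and 20.6% for the ribosome. They were 7.41% and 14.8% for the endoplasmic reticulum and 7.14% and 7.14% for the clock, near all genes toward liver. Of 47 oxidative phosphorylation genes 42 did not pass, 1 was higher in liver and 4 in fat (median -0.20, or 0.47 with centring, when 6 were higher in liver and 2 in fat). The exceptions were Atp5g1 toward liver (308 ± 23 against 97.8 ± 20.8 FPKM), and toward fat the uncoupling proteins Ucp2 (6.18 ± 0.913 against 115 ± 20 FPKM) and Ucp3 (listed at 0 in liver and at 9.73, 11.5, 14 and 10.7 FPKM in fat) with Cox8a and Ndufb8, which centring removed (Ndufb8 was at -0.93 without fat replicate 1). Ucp1, of brown fat, was at 0.0618, 0.0528, 0 and 0 FPKM in fat. Of 34 cytosolic ribosome genes 27 did not pass and 7 were called toward fat (median -0.81), but with centring 0 were called in either direction (median -0.14). Of 27 genes of the endoplasmic reticulum 21 did not pass (median -0.13, or 0.54 with centring). Herpud1 and P4hb were higher in liver by 1.76 and 1.12, and 4 genes, Eif2ak3, Spcs1, Atf4 and Ddit3, were called toward fat at -1.04, -1.18, -1.27 and -1.52. With centring 7 were higher in liver and 0 in fat. Of 14 clock genes 12 did not pass (median -0.02, or 0.65 with centring). Nfil3 was higher in liver by 1.14 (0.93 without liver replicate 4) and Per1 was called toward fat at -1.12 (-0.84 without fat replicate 2 and -0.93 without liver replicate 4). With centring 3 were higher in liver and 0 in fat. Of 22 interferon genes 18 did not pass (median 0.41), with Mx2, Usp18 and Isg15 higher in liver by 1.32, 1.25 and 1.33 (the Isg15 libraries overlapped) and the guanylate-binding protein Gbp2 higher in fat at -2.69. The interferon shares were 13.6% toward liver, near that of all genes, and 4.55% toward fat. With centring 12 of these interferon genes were higher in liver and 1 in fat.

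Antioxidant genes went both ways. Of 31 tested, 7 were higher in liver, 10 in fat and 14 did not pass (median -0.31, or 0.36 with centring, when 9 were higher in liver and 5 in fat). The shares of 22.6% and 32.3% stand beside 10.5% and 36% of all genes, the second near it. Cat, catalase, was at 1373, 1199, 1309 and 1068 FPKM in liver and 238, 256, 259 and 267 FPKM in fat, and Gclm, of glutathione synthesis, differed by 1.8. Mt1a, a metallothionein, was higher in liver by 5.12 and Ephx1, an epoxide hydrolase, by 3.14. Among those higher in fat were Gpx3, the glutathione peroxidase of plasma, at 4.8, 8.07, 7.16 and 8.64 FPKM in liver and 1352, 1293, 1373 and 1471 FPKM in fat and Sod3, the extracellular superoxide dismutase, at 8.58 ± 1.16 against 304 ± 17 FPKM.

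The extracellular matrix had the lowest median of the gene lists. Of 38 genes tested 35 were higher in fat, 1 in liver and 2 did not pass (median -5.18, or -5.01 without the gene at 0 in liver), and 32 remained on the fat side with centring. Col6a2 and Col5a2, collagens of fat and fibrous tissue, differed by -6.30 and -5.34. Dcn, decorin, was at 1.31, 3.42, 2.94 and 3.19 FPKM in liver and 1018, 766, 919 and 949 FPKM in fat, and Fbn1, fibrillin, at 0.425 ± 0.0612 against 102 ± 13.8 FPKM. Mmp2 and its inhibitor Timp2 differed by -5.74 and -6.26. Postn, periostin, was at 221, 132, 148 and 123 FPKM in fat and is listed at 0 in liver. The gene on the liver side was Vtn, vitronectin of plasma, at 1442 ± 111 against 18.6 ± 5.97 FPKM.

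Marker lists of other cell types were mostly on the fat side. Their counts stand beside 36% of all genes called toward fat and 10.5% toward liver. The Kupffer and stellate cell lists had 33.3% each toward fat, near that of all genes. All 13 fibroblast and all 10 endothelial markers tested were called toward fat, with Pi16 at -7.10, Cd34 at -6.35, Tie1 at -2.27 and Pecam1 at -2.71, and with centring 12 and 8 were. Of 12 macrophage markers 10 were higher in fat, 1 in liver and 1 did not pass. Lyz2, lysozyme, was at 18.9, 20.4, 26.8 and 24 FPKM in liver and 1721, 789, 1129.9 and 849 FPKM in fat, and Trem2, of lipid-laden macrophages, at 0, 0, 0 and 0.0699 FPKM in liver and 69.8, 34, 37.3 and 40 FPKM in fat. Of 6 Kupffer cell markers 3 were higher in liver, 2 in fat and 1 did not pass. The receptors Clec4f and Vsig4 were at 77 ± 14 and 25.5 ± 4.14 FPKM in liver against 0.3 ± 0.118 and 0.275 ± 0.114 FPKM in fat. On the fat side were the folate receptor Folr2 and C6, at -4.57 and -2.37. Of 6 markers of liver sinusoids 3 were higher in liver, among them Stab2 and Clec4g by 2.10 and 4.41, 2 did not pass and Lyve1 was called toward fat at -1.59, which centring removed. Of 6 stellate cell markers 3 were higher in liver, among them Colec11 and Lrat by 4.24 and 1.83, 1 did not pass, and Des and Rgs5, which smooth muscle and pericytes also express, were higher in fat at -3.40 and -2.61. Msln, of mesothelium, was at 70, 184, 152 and 188 FPKM in fat and Upk3b at 23, 81.6, 52.2 and 89.5 FPKM, and both were below 1 FPKM in each liver library. The mast cell proteases Cpa3 and Cma1 differed by -4.43 and -4.77, and the haemoglobin genes Hba1 and Hbb by -4.10 and -3.87.

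Fat replicate 1 was the highest or the lowest of the fat libraries in several of these lists. Its macrophage list mean was 6.55 on the log2 scale against 6 to 6.14 in the other fat libraries, its list of lipid-associated macrophages 7.10 against 6.37 to 6.70, and its mesothelium list mean 4.09 against 5.16 to 5.69. The haemoglobin genes were lowest there, with Hbb at 1398, 2606, 4097 and 3023 FPKM over the 4 fat replicates. In liver, replicate 4 had the highest macrophage list mean, 3.97 against 3.61 to 3.65. The part of cell makeup in the differences between single libraries was not tested. Left out in turn, no library moved either count of calls by more than the range of 4132 to 4188 genes higher in fat and 1203 to 1222 higher in liver.

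**Figure D5:**
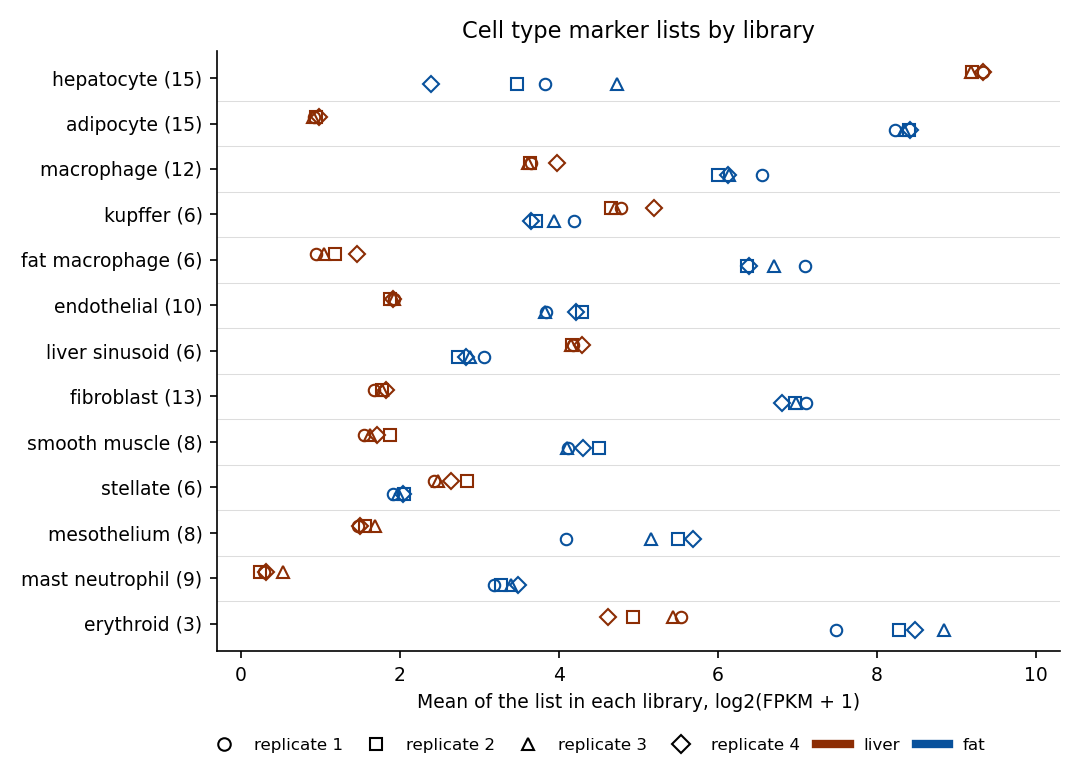
Rows are marker lists with the number of genes tested, and the x axis gives the mean of log2(FPKM + 1) over the list in each LA library, brown for liver and blue for fat, with a symbol for each replicate. Fat replicate 1 (circle) lies highest in the fat samples for macrophages (6.55) and lowest for mesothelium (4.09), and the hepatocyte list in fat runs from 2.39 in replicate 4 to 4.73 in replicate 3.

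Transcription factors of the hepatocyte and adipocyte programmes followed their tissues. Of 25 liver factors 19 were higher in liver, 0 in fat and 6 did not pass (median 2.68, or 2.56 without the gene at 0 in fat). Hnf4a, the nuclear receptor that maintains hepatocyte identity, was at 114, 84.7, 91.1 and 79.7 FPKM in liver and 0.364, 0.207, 1.06 and 0.264 FPKM in fat, and Nr1i2, the xenobiotic receptor PXR, differed by 5.55. Onecut1 ranged over 8.97, 6.26, 1.58 and 2.18 FPKM among the liver libraries. Cebpa and Cebpb, used by both cell types, did not pass, at 57.9 ± 6.46 against 75.7 ± 7.7 and 23.3 ± 4.29 against 20.7 ± 3.4 FPKM. Of 18 fat factors 14 were higher in fat, 1 in liver and 3 did not pass (median -2.77, or -2.57 without the gene at 0 in liver). Pparg differed by -5.25, Ebf1, which cooperates with it, by -3.98, and Zfp423, a determinant of white adipocytes, by -3.64. Wt1, of mesothelium and visceral fat, was at 7.87, 12.5, 10.2 and 15.5 FPKM in fat and lowest in replicate 1, as were the mesothelial markers. Rxrg was the factor on the liver side, at 20.4 ± 1.64 against 7.92 ± 0.676 FPKM. Positional genes that reached the filter lay on the fat side. All 10 Hox and cofactor genes tested were called toward fat (median -1.87, or -1.42 without the genes at 0 in liver), 6 of them with centring. Of these, 5 are at 0 in liver and passed the filter only through the fat libraries, which fixed their direction. Of 24 matched genes 14 are listed at 0 in all liver libraries, 3 of them in all fat libraries too. Hoxc9 was at 6.07, 5.63, 6.91 and 6.49 FPKM in fat and Meis1 at 1.41 ± 0.3 in liver against 10.8 ± 1.36 FPKM in fat.

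Promoter sequence is shown for genes where the level of a factor and a motif for it can be set side by side. The windows run from 250 bases before to 50 bases after the start of transcription in RefSeq, on build GRCr8, which may not be the build of the deposited values. Windows were found for 72.3% of the genes higher in liver, 73.3% of those higher in fat and 75.2% of all tested. Since these shares are below 80%, no comparison of motifs between the sets was made. Among the named genes with a window, the C/EBP motif TTGCNNCAA, searched on both strands, was found in that of Gsn and in 2.11% of all 27457 windows. The DR1 motif GGTCAAAGG, which partly overlaps HNF4 motifs and is bound by PPAR receptors with their RXR partner, was found in that of Gys2 and in 0.353% of all. The HNF4 motif CAAAGTCCA was found in no window of a named gene (0.375% of all). The HNF1 motif GTTAATNAT was found in the windows of Gc, Rup2, Lipc and Igfbp1 and in 0.75% of all. These genes were higher in liver, by 8.21, 8.19, 6.82 and 4.61. No level of an HNF1 factor is printed here, and these windows are not shown. Gsn encodes gelsolin, an actin-severing protein that was at 0.963, 1.34, 1.61 and 1.66 FPKM in liver and 3049, 3057, 2864 and 3613 FPKM in fat. Gys2, the liver glycogen synthase, was at 22.8, 24.9, 25.1 and 28.5 FPKM in liver and 6.44, 5.93, 7.02 and 4.77 FPKM in fat. In the sequences, capitals mark the matched motif. The Gsn window lies at chr3:39008682-39008981 on the plus strand and that of Gys2 at chr4:177137187-177137486 on the minus strand.
Gsn: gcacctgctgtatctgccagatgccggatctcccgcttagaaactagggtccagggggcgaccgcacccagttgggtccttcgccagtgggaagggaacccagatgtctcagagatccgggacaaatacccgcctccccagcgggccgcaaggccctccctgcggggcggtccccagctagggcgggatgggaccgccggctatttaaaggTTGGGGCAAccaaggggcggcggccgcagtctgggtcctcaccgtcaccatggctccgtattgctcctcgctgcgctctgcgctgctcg
Gys2: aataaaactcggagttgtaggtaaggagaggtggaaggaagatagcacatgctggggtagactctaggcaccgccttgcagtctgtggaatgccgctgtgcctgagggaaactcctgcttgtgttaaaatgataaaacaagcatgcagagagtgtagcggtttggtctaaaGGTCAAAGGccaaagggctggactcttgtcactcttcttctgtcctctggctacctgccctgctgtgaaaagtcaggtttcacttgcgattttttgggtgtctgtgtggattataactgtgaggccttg
The first base of the C/EBP match lies 39 bases before the start in Gsn, and that of the DR1 match 79 bases before it in Gys2. Gsn was higher in fat at -10.37 beside Cebpa and Cebpb that did not pass, and Gys2 was higher in liver by 1.91 beside Hnf4a and Ppara, which were also higher in liver, and Pparg, which was higher in fat. A match in a window is a description of its letters and not a site of binding.

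The libraries of a tissue varied more in fat than in liver, with a median SD of 0.17 on the log2 scale over genes in fat and 0.12 in liver. An SD over 0.5 was found for 586 genes in fat and 182 in liver. Among list genes called between the tissues, the most variable in fat were hepatocyte genes such as Apoa4 (14.6, 5.45, 24.8 and 2.39 FPKM) and Fetub (10.1, 5.93, 23.6 and 2.09 FPKM), in the order of replicates described above, and the mesothelial gene Lrrn4 (4.66, 30.1, 16.1 and 36.3 FPKM). The most variable in liver were Pnpla3, Rbp7 and Sds, given here or above. Cyp4a2, a fatty acid hydroxylase, was at 28, 108, 54.4 and 107 FPKM, and Rbp7, a retinol carrier, at 1.15, 8.6, 4.33 and 8.76 FPKM. Cyp4a2 and Rbp7 were lowest in replicate 1, and Pnpla3 and Insig1 were highest in replicate 3. All of these keep the side given above in each library, with the exception of Pnpla3.

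Whether a tissue difference depended on the feed was tested over all 16 libraries, with the pair-fed libraries as the background. Of 12079 genes, 46 differed between the feeds in their tissue difference (limma interaction, adjusted p under 0.05), which is 0.381%, and 991 had an unadjusted p under 0.05. The count was 22 without the filter on low values, 24 without LA liver replicate 2, 30 without LA fat replicate 2 and 28 without LA fat replicate 4. Of the 46 genes 31 were called between the tissues under LA, and 7 differed in the sign of the tissue difference between the feeds. The comparisons under each feed share no libraries. Scd1 had the smallest adjusted p (1e-07) because it is listed at 0 in all 4 pair-fed fat libraries, against 2800.0 to 3770.0 FPKM in pair-fed liver, so that its tissue difference of -0.38 under LA cannot be set against a measured level. Sult1c2, a sulfotransferase, differed between liver and fat by 4.91 under LA and 1.63 under pair-feeding (adjusted p = 8.8e-05), with 17.5, 48.7, 28.4 and 37.9 FPKM in LA liver and 1.65, 2.89, 3.73 and 2.05 FPKM in pair-fed liver.

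Acsl5 had a smaller tissue difference under LA, 2.23 against 3.24 (limma interaction, adjusted p = 0.0067). It was at 181, 147, 220 and 195 FPKM in LA liver and 329, 311, 336 and 390 FPKM in pair-fed liver. Acot2, a mitochondrial thioesterase, was 1.38 under LA and -0.43 under pair-feeding, and Trib3 2.01 and 0.10. Rsad2, of the interferon list, did not pass between the tissues under LA, at 0.59, against -1.45 under pair-feeding. Ugt1a6 was at -0.14 and -1.43, and Ly6c at -2.15 and -3.55. Apart from Scd1, the liver means of these genes differed by a larger ratio between the feeds than the fat means, for example 14.4 ± 3.15 FPKM of Ly6c in LA liver against a pair-fed mean of 3.86 FPKM. Over the list genes 865 were tested for this and 9 passed, of which 8 are named here. For the other list genes no dependence of the tissue difference on the feed was detected.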

How the data were processed

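RNA of liver and epididymal fat was sequenced from kits that do not mark the strand (TruSeq RNA V2, per the labels' protocols). The authors used CASAVA 1.8.2, Cuffdiff and TopHat (version given as 0.12.8) per the submitters' processing notes, and the deposited values are FPKM per gene and replicate, per the file headers. The sources used here name no genome build or annotation. File headers number replicates from 0 and the labels from 1. Values were taken as log2(FPKM + 1), so fold changes of low genes are understated, and genes that reached 1 FPKM in 4 or more libraries were fitted with limma 3.58.1 in R 4.3.3 (trended variance, no covariate, Benjamini-Hochberg adjustment over all genes). The interaction of tissue and feed was fitted over all 16 libraries. The test was checked on simulated data with the sizes of this comparison (11568 genes) and independent normal noise. Changed genes, 50 of each size, were drawn only from those with a mean over 3 on the log2 scale. Of these, 96% of genes changed by 1.5 and 100% of those changed by 3 were called. Changes in lower genes were not tried, and far fewer genes were changed than were called in the real data. P-values measure the spread between these rats' samples, and which liver and fat library share a rat was not known to the fit.

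Gene lists, pairs and members were chosen with earlier results of these data known. Of 1059 list genes 954 matched a symbol of the files, 37 an older name and 68 none. Genes named are the 20 largest differences in each direction (among called genes without overlap between the tissues, with a mean of at least 1 FPKM in one of them, without LOC, RGD and clone names and without genes at 0 in a whole tissue), up to 6 called members of each list with the smallest adjusted p and up to 4 against its main direction, all members of pairs and of the adipokine, lipoate and adrenergic lists, members at 0 in a whole tissue, the 10 most variable called genes per tissue, members with an interaction and the 5 factors with the largest differences in each direction. From these only some are printed, and some items are not reported here. Apoe, C3, Cebpa, Cebpb, Igfbp2, Igfbp3, Rbp4 and Sdsl fall outside this rule and were chosen after their values were seen. Promoters are RefSeq sequences of GRCr8, and 13499 of the 22517 symbols are current in RefSeq. Alternatives were another pseudocount, filter, fold limit and scaling, all 16 libraries, a replicate block and leaving out each library, and, added after seeing the data, fat libraries with the liver share taken out.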

Additional observations from a re-analysis of the deposited data

Results flagged for a closer look

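In 27 of 698 groups of 4 libraries looked at (3.87%), over the genes named and the marker list means, 1 library stood apart from the other 3 by more than Dixon's critical value for 4 samples. Chance sets apart about 1 group in 20. In fat replicate 3, which held the most liver transcripts, Nr0b2 was at 1.2 FPKM against 0.072 to 0.211 in the others and Nr1h4 at 0.349 against 0.0681 to 0.0798. In fat replicate 1, which had the highest macrophage marker mean, Thbd was at 37.5 FPKM, Gbp2 at 42.9 and Il6 at 2.49, all high, and Igfbp2 was low at 34.8 FPKM against 120 to 154. In fat replicate 4, Cyp2b1 was high at 10.4 FPKM against 2.8 to 3.06, Agt low at 169 against 263 to 272, and Onecut1 at 0.0301 against 0. Hk2 was high in fat replicate 2, at 11.5 FPKM.

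In liver replicate 4, which had a macrophage list mean of 3.97 against 3.61 to 3.65, Tnf was at 0.447 FPKM and Trem2 at 0.0699 FPKM, both high, as were Aass at 93, F13b at 121 and Rbp4 at 6485 FPKM, while Thra was low at 2.62 FPKM. Liver replicate 2 was high in Ogdh (42 FPKM), Mmp2 (1.16), Cma1 (0.305), Fst (0.0662) and Sfrp5 (0.0345) and low in Pdha1 (23.3). Liver replicate 1 was high in Nampt (48.1 FPKM) and Pi16 (0.0917) and low in Cav1 (0.788), and liver replicate 3 was high in Dlat (19.7 FPKM). The smallest of these values lie near what a few fragments give.

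The tissue difference, liver minus fat, differed between the feeds by the interaction test (limma, adjusted p from 1e-07 to 0.045) for 8 of the genes named. The difference under LA minus that under pair-feeding was -12.1 for Scd1, which is listed at 0 in pair-fed fat, and -1.02 for Acsl5. It was 3.28 for Sult1c2, 2.04 for Rsad2, 1.91 for Trib3, 1.81 for Acot2, 1.4 for Ly6c and 1.29 for Ugt1a6.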

How the results depend on the processing

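No library, left out in turn, moved the counts beyond 1203 to 1222 genes higher in liver and 4132 to 4188 higher in fat. With median centring 1985 genes were higher in liver and 2292 in fat, with quantile normalization 1916 and 2392, with a fold limit of 2 on the log2 scale 733 and 1739, and with no fold limit 2066 and 7722. The other alternatives stayed within 1.5 times the counts. With a replicate block 1211 genes were higher in liver and 4161 in fat, as without it, and 37 interactions were called. The correlations of same-numbered liver and fat libraries' deviations were -0.138, 0.115, 0.098 and -0.228, so the numbers give no sign of pairing. With the liver share taken out of the fat libraries, an alternative chosen after seeing the data, 1219 and 4153 genes were called. The 46 interactions became 22 without a filter and 24 to 61 with a library left out.

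List medians near 0 changed sign. With centring the clock list gave 0.65, endoplasmic reticulum genes 0.54, oxidative phosphorylation 0.47 and antioxidant genes 0.36. With quantile normalization the clock list gave 0.56, endoplasmic reticulum genes 0.14 and glycolysis 0.01. The clock list was at 0.01 with a pseudocount of 0.1 and between -0.18 and 0.06 with a library left out, and lipogenesis was at -0.01 with a filter of 5 FPKM. Genes that had not passed changed sign with centring: Pck1 (0.54), Ugt1a6 (0.53), Pdhx (0.48), Pdk1 (0.43), Pfkl (0.4), Pdk4 (0.36), Cebpa (0.29), Scd1 (0.29) and Nampt (0.17). With quantile normalization Pdhx was at 0.43, Ugt1a6 at 0.28, Pfkl at 0.27, Pdk4 at 0.25 and Pdk1 at 0.22. With a library left out Pck1 ranged from -0.34 to 0.04 and Scd1 from -0.93 to 0.1. Centring moves all differences toward liver by the same amount by construction. The cause of the other changes was not tested. Total reads are unknown, so no counting error could be given for low values.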

Other observations

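Markers of tissues next to the fat pad and of other blood cells gave single signals. Of 12 testis and germ cell markers 2 reached the filter, the steroid synthesis genes Star at 30.1, 17.3, 23.1 and 13.8 FPKM in fat and Cyp11a1 at 7.25, 7.53, 7.04 and 8.36 FPKM in fat, with Cyp11a1 listed at 0 in liver. The keratins Krt19 and Krt7, listed as bile duct markers and also made by mesothelium, were lowest in fat replicate 1. Krt19 was at 17.5, 52.1, 41.1 and 58.5 FPKM in fat against 1.31 ± 0.732 FPKM in liver, and Krt7 at 3.88, 15.1, 13.7 and 19 FPKM in fat against 0.151 ± 0.138 FPKM in liver. Of 11 skeletal muscle markers 3 reached the filter, with Tnnt3 at 8.17 ± 1.14 FPKM in fat. Of 10 nerve markers 4 did, among them Mbp at 39.1 ± 6.35 FPKM in fat. Of 14 T and NK cell markers 3 reached the filter, and Cd4, which rat macrophages also carry, was higher in fat (7.07 ± 1.56 against 71.3 ± 7.17 FPKM), while no B cell marker of 9 reached it.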
